A study of Homo sapiens with 3 samples.

Results

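The transcription factor gene KLF2 and 8 genes for receptors that guide lymphocyte traffic were followed in RNA from Jurkat cells, an established human T-lineage acute lymphoblastic leukaemia line. The 9 genes were taken by symbol from the deposited table, which has 17329 gene rows, and all 9 were found. They are KLF2, the sphingosine 1-phosphate receptor gene S1PR1, the chemokine receptor genes CXCR4 and CCR7, the selectin ligand gene SELPLG, and the integrin subunit genes ITGA4, ITGB1, ITGAL and ITGB2. Polyadenylated RNA was sequenced after 48 hours in 3 media, with 1 library for each. Oxamate blocks lactate dehydrogenase. The oxamate+lactate culture received 50 mM sodium oxamate together with 10 mM L-sodium lactate. The oxamate culture received 50 mM sodium oxamate alone, and the control culture had standard medium. All cultures shared RPMI 1640 medium with fetal bovine serum. The series asks how H3K18la, the lactylated form of a histone H3 lysine, bears on transcription. Neither lactate nor that mark is measured in the values used here.

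KLF2 is a zinc finger protein of the Krüppel-like factor family that is high in resting T cells and is lost when they are activated. In mouse T cells it is needed for normal expression of S1pr1, whose product lets cells follow sphingosine 1-phosphate out of the thymus and lymph nodes. Cells enter lymph nodes and tissue by a series of contacts, in which selectins and their ligands slow the cell, chemokine receptors such as CXCR4 and CCR7 signal, and integrins then hold it. ITGA4 and ITGB1 encode the chains of VLA-4, which binds VCAM-1 and fibronectin, and ITGAL and ITGB2 encode the chains of LFA-1, which binds ICAM-1.

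The promoter windows of 3 genes are shown because KLF2 had the largest difference of the 9 genes, S1PR1 is the target of KLF2 best known from mice, and ITGA4 had the largest difference between oxamate and control among the receptors over the floor used below. Each window runs from 250 bases before the annotated start to 50 after it, from RefSeq on GRCh38.p14, a build other than that of the deposited files. Windows were present for KLF2, S1PR1, CXCR4, ITGA4 and ITGB1. CCR7, SELPLG, ITGAL and ITGB2 had none. Capitals in the KLF2 window mark CTAAATTTAG, a form of the MEF2 consensus, and in the other windows CACCC, the core of the element that KLF proteins bind, or its reverse complement GGGTG.
KLF2 (chr19:16324576-16324875, plus strand): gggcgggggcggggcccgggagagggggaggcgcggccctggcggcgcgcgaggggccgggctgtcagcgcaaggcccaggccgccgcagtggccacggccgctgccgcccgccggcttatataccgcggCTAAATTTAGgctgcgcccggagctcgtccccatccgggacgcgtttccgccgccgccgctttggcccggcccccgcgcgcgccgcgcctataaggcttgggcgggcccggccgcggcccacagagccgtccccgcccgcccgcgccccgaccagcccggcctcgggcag
S1PR1 (chr1:101236769-101237068, plus strand): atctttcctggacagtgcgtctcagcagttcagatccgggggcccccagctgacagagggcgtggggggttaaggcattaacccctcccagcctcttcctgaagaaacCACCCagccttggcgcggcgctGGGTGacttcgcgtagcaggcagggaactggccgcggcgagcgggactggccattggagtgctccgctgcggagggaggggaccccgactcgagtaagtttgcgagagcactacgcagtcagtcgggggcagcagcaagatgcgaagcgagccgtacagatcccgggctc
ITGA4 (chr2:181457136-181457435, plus strand): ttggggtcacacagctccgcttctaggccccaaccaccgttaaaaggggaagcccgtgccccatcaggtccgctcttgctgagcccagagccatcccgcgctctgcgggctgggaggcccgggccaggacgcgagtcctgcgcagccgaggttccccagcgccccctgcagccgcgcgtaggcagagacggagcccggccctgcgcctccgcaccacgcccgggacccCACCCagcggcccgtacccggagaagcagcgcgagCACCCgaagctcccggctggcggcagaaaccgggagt
The sequence CTAAATTTAG, which reads the same on both strands, starts 120 bases before the KLF2 start. It was chosen after the window was read, and 0.0661% of 34796 distinct promoter windows hold it, while 3.01% hold a match to the MEF2 consensus. CACCC was searched on both strands and is in 59.8% of windows. It starts at -142 on the plus strand and at -120 on the minus strand of S1PR1, and at -22 and 14 of ITGA4, counted from the annotated start. Each CXCR4 window also holds CACCC, as does a window of ITGB1, at -31 and -15. CACCC is not among the letters of the KLF2 window. Neither is TGTTTAC, a core of FOXO sites that 3.42% of windows hold on either strand. No motif in the windows shown overlaps another, and these matches describe letters and not binding.

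The values are normalized counts as deposited, whole numbers with a normalization that the sources used here do not give. They summed to 8171633 in oxamate+lactate, 8821115 in oxamate and 8220199 in control, and the reads behind them are unknown. Ratios are log2((value + 1)/(value + 1)), and background shares refer to the 12292 genes that averaged 50 or more over the 3 libraries, called the floor below. With 1 library per condition no difference has a replicate check and no test was possible, so "higher" and "lower" compare libraries. As a measure of handling after extraction, 18 ERCC spike-in RNAs with a mean of at least 100 ranged from -0.24 to 0.29 for oxamate against control, from -0.39 to 0.10 for oxamate+lactate against oxamate, and from -0.39 to 0.39 for oxamate+lactate against control. They do not cover differences between cultures. Of 16 listed T-lineage markers 15 had rows, with summed values of 19549 in oxamate+lactate, 21729 in oxamate and 17848 in control. A row alone does not tell lineages apart. Under the floor were CD28 at 20, 66 and 3, LAT at 13, 20 and 23, and CD4 at 25, 21 and 37, in the same order. The 12 T-lineage markers over the floor had a median ratio of 0.35 for oxamate against control, and CD1A, an antigen-presenting protein of immature thymocytes, passed 1.5-fold, with 469 in oxamate+lactate, 683 in oxamate and 230 in control (1.57). CD3E, a chain of the T-cell receptor complex and the highest of the list, had 4011, 4128 and 4488 in the same order (-0.12). The part of these T-lineage differences in the ratios of the members was not tested. Of 6 B-cell markers 4 had rows, which summed to 97, 79 and 99, most of it CD79A at 71, 62 and 76. Of 6 endothelial and stromal markers COL1A1 had a row, at 165, 202 and 202, and of 7 myeloid markers 0 had rows. In bulk RNA, a change in how many cells express a gene and a change in RNA per cell cannot be told apart.

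KLF2 stood apart from the 8 receptor genes. It had 1223 normalized counts in oxamate+lactate, 1922 in oxamate and 446 in control. The control library was thus far below both treated libraries, and the oxamate library was highest. The ratio of oxamate against control was 2.11 on the log2 scale, 4.30-fold higher, which ranked 7 of 12292 genes. The ratio of oxamate+lactate against control was 1.45, 2.74-fold higher and rank 14. With lactate added KLF2 was 1.57-fold lower than with oxamate alone (-0.65). In the values as deposited, 31.0% of its log2 difference from control was then absent, a share not computed under other scalings. These 3 ratios share libraries and are not independent of each other. With the median of all genes set to 0 the last comparison came to -0.56, and with libraries scaled to equal totals to -0.54, both short of 1.5-fold.

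The other genes of the set differed less. KLF2 was the only 1 of the 8 members over the floor to be at least 1.5-fold higher in oxamate than in control, where 7.48% of all genes were, and no member was 1.5-fold lower, where 3.98% were. At 2-fold the background was 1.21% higher and 0.879% lower, which is 149 and 108 genes, and with the median of all genes set to 0 these became 99 and 132. For oxamate+lactate against control KLF2 was again the only member past 1.5-fold or 2-fold higher, against 2.99% and 0.545% of all genes, and none was 1.5-fold lower, against 3.07%. KLF2 alone was 1.5-fold lower in oxamate+lactate than in oxamate, against 0.903% of genes, and no member was 1.5-fold higher, against 0.252%. Without KLF2 the median ratio of the members over the floor was 0.13 for oxamate against control, -0.06 for oxamate+lactate against oxamate and 0.14 for oxamate+lactate against control, beside medians of 0.08, -0.09 and -0.01 over all genes. Outside the range of the ERCC RNAs lay 4 members for oxamate against control, namely KLF2, S1PR1, CXCR4 and ITGA4, and so did 42.4% of all genes. KLF2 and SELPLG did so for oxamate+lactate against oxamate, with 18.8% of all genes, and KLF2 for oxamate+lactate against control, with 16.3%.

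**Figure D1:**
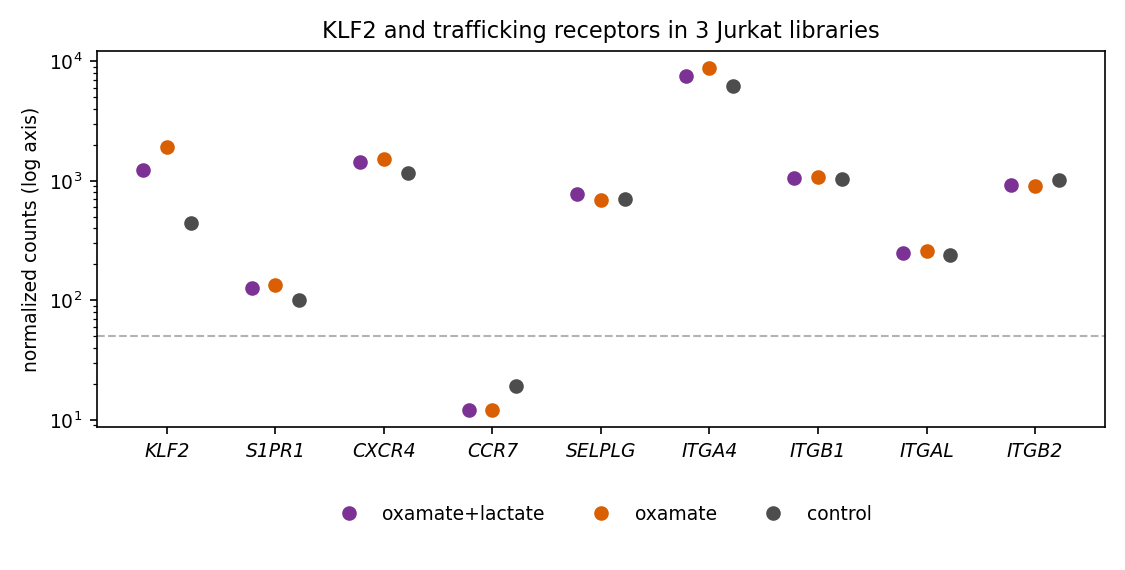
Normalized counts (log axis) of the 9 genes, with 1 point per library, for oxamate+lactate, oxamate and control. The dashed line is the floor of 50. KLF2 has the widest gap between libraries, with 1223 and 1922 in the treated libraries and 446 in control, and CCR7 lies below the floor in all 3.

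**Figure D2:**
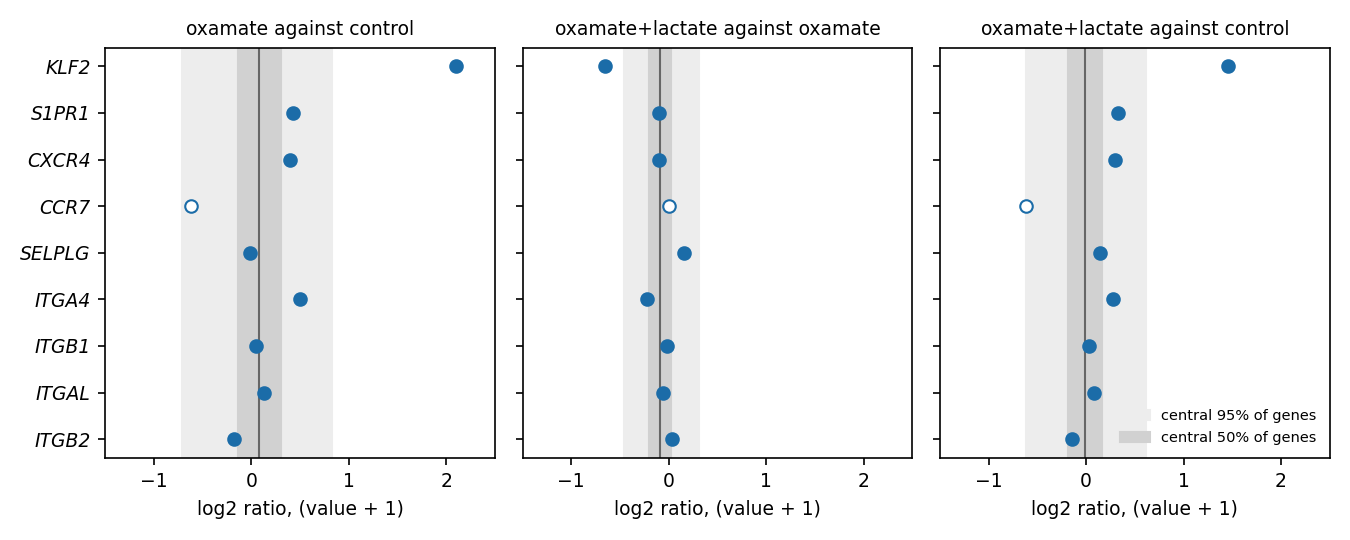
Log2 ratios of the 9 genes in the 3 comparisons, on the (value + 1) scale. Grey bands hold the central 50% and 95% of the 12292 genes over the floor, the vertical line is their median, and the open circle marks CCR7, which is under the floor. KLF2 is the only one of the 8 genes over the floor to lie outside the wide band, and does so in each comparison.

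The genes nearest to KLF2 in rank for oxamate against control were expressed at lower levels. Above it came MAF, a transcription factor of helper T cells, at 153 normalized counts in oxamate+lactate, 194 in oxamate and 36 in control (log2 ratio of oxamate against control 2.40), then CEBPE, a myeloid transcription factor, at 2.32, and AC004840.9 at 2.23. Below it came SPRN, KCTD11 and RFX8, at 2.07, 1.95 and 1.87. SPRN shares its locus with MTG1, which had 69, 73 and 50. Over the pair of ratios against control, the genes reported among those with the nearest pattern to KLF2, of 10947 searched, were KCTD11, SPRN, RFX8 and RP11-973H7.1, with distances of 0.16, 0.21, 0.26 and 0.41 on the log2 scale. KCTD11 had 136 normalized counts in oxamate+lactate, 185 in oxamate and 47 in control. SPRN, RFX8 and RP11-973H7.1 had 32, 40 and 34 in control. All of these genes, KCTD11 included, were under 50 in control and met the floor through the treated libraries. These likenesses rest on 3 libraries.

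KLF2 transcripts are rich in G and C, at 65.2% of the longest annotated transcript, above 96.9% of the genes over the floor. The ratios of oxamate against control were higher in such genes, with a median of 0.27 over the 587 genes within 2 percentage points of KLF2, itself included, and no other gene among them had a ratio as high as that of KLF2. These 587 genes had a median of -0.13 in the comparison of oxamate+lactate against oxamate. For oxamate against control, genes as near in GC content had medians of 0.2 for SELPLG and for ITGB2 and 0.18 for ITGAL. The same medians were 0.09 for S1PR1, 0.01 for CXCR4 and for ITGA4, and -0.03 for ITGB1. The part of base composition in the ratios of KLF2 and these members was not tested further.

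Of the 18 KLF family genes, 13 had rows and 11 were over the floor. Besides KLF2, KLF16 was at least 1.5-fold higher in oxamate than in control, and none was 1.5-fold lower, against 7.48% and 3.98% of all genes. The family median was 0.16. KLF16 had 509 normalized counts in oxamate+lactate, 647 in oxamate and 406 in control (0.67), and fell short of 1.5-fold with equal library totals (0.57). KLF13, which regulates chemokine expression in T cells, had 1294, 1365 and 1262 (0.11), and KLF3, a repressor, had 206, 208 and 203 (0.03). KLF5 reached 1.5-fold higher in oxamate+lactate against control (0.60), at 84, 71 and 55, but not with a pseudocount of 10 (0.53). KLF4, the paralogue closest to KLF2 in function, was under the floor at 18, 20 and 28. KLF10, a gene induced by TGF-beta, had 96, 89 and 125 (-0.49). Per kilobase of the longest annotated transcript, KLF2 made up 48.9% of the summed level of the 13 genes in oxamate+lactate, 58.0% in oxamate and 27.0% in control. KLF13 held the next share in control, with 22.6%, against 15.3% in oxamate+lactate and 12.2% in oxamate.

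Regulators of KLF2 varied little at the RNA level. All 16 genes with rows were over the floor, and their median for oxamate against control was 0.08, equal to that of all genes. FOXO4 was the only one 1.5-fold higher, against 7.48% of all genes, with none 1.5-fold lower, against 3.98%. FOXO factors drive KLF2 in resting T cells. FOXO4 had 208 normalized counts in oxamate+lactate, 251 in oxamate and 163 in control (0.62, but 0.54 relative to the median of all genes and 0.52 with equal totals, short of 1.5-fold), and FOXO1 had 122, 104 and 82, highest with lactate added. The MEF2 pathway to KLF2, known best from endothelial cells, runs from the kinase MEK5 (MAP2K5) to ERK5 (MAPK7) and on to MEF2 factors. MAP2K5 had 358 in oxamate+lactate, 331 in oxamate and 404 in control (-0.29), MAPK7 327, 317 and 333 (-0.07), MEF2A 546, 541 and 580 (-0.10), and MEF2D 401, 489 and 497 (-0.02). HDAC7, a partner of MEF2 that represses its targets, was the highest of the list at 1331, 1365 and 1062 (0.36). None of the 16 genes passed 1.5-fold for oxamate+lactate against either other library in the values as deposited. FOXO1 came just short of it against control (0.57), but passed it with equal ERCC sums. That scaling moved the median of all genes in that comparison from -0.01 to 0.06.

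S1PR1, the receptor for egress, was modestly higher in both treated libraries. It had 126 normalized counts in oxamate+lactate, 135 in oxamate and 100 in control. The treated libraries were close to each other and control was lowest. The log2 ratio was 0.43 for oxamate against control, a value exceeded by 14.6% of genes, and 0.33 for oxamate+lactate against control. Between oxamate+lactate and oxamate it was -0.10, near the median of all genes (-0.09), and it changed sign with equal library totals. In contrast S1PR3, a receptor for the same lipid better known from vessels, had 172 normalized counts in oxamate+lactate, 115 in oxamate and 311 in control. Its ratio of oxamate against control was -1.43, and oxamate was the lowest library. S1PR2 was under the floor at 32, 49 and 32.

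Of 12 listed genes for sphingosine 1-phosphate receptors and metabolism with rows, 9 were over the floor. Of these SPHK1 was 1.5-fold higher, against 7.48% of all genes, and S1PR3 2-fold lower, against 0.879%, in oxamate than in control. The list median was -0.09. The kinase genes that make the lipid had higher values in the treated libraries, SPHK1 at 95 in oxamate+lactate, 84 in oxamate and 50 in control (0.74) and SPHK2 at 495, 540 and 378 (0.51). SPHK1 overlaps PRPSAP1 in GENCODE 29, which had 531, 544 and 498. SGPL1, the lyase that breaks the lipid down, had 703, 676 and 891 (-0.40), and the exporter gene SPNS2 had 252, 227 and 310 (-0.45). CD69, whose product pulls S1PR1 off the cell surface, had 56 in oxamate+lactate, 78 in oxamate and 83 in control, lowest with lactate added.

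CXCR4, the receptor for CXCL12 that holds immature T cells in thymus and marrow, was the main chemokine receptor gene of these cells. It had 1431 normalized counts in oxamate+lactate, 1530 in oxamate and 1161 in control. Both treated libraries were above control by similar amounts, with log2 ratios of 0.40 for oxamate and 0.30 for oxamate+lactate. The ratio of oxamate+lactate against oxamate was -0.10, which turned to 0.01 with equal library totals. CCR7, the receptor that leads T cells into lymph nodes, had 12 in oxamate+lactate, 12 in oxamate and 19 in control, with a mean of 14.3, so it was under the floor and its ratio of -0.62 rests on a few counts. Of the 23 chemokine receptor genes listed, 12 had rows and CXCR4 and CXCR5 were over the floor. CXCR5, the follicle-homing receptor, had 86, 106 and 73 (0.53). The ligand genes CXCL12, CCL19 and CCL21 were not analysed here.

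Genes that carry or damp chemokine signals had a median near that of all genes, 0.03 for oxamate against control over 26 genes. Of these, 4 were at least 1.5-fold higher, against 7.48% of all genes, and 3 lower, against 3.98%. Among the higher were ARRB1, a beta-arrestin that uncouples receptors, at 211 normalized counts in oxamate+lactate, 262 in oxamate and 134 in control (0.96), and the receptor kinase gene GRK5 at 154, 161 and 96 (0.74). RGS19, which speeds the shut-off of G proteins, had 344, 394 and 226 (0.80), and ELMO1, a partner of the Rac activator DOCK2, had 1380, 1638 and 1069 (0.62, but 0.54 relative to the median of all genes and 0.51 with equal totals, short of 1.5-fold). Lower were the G protein regulators RGS16, at 50, 29 and 71 (-1.26), and RGS10, at 150, 115 and 217 (-0.91). CORO1A, an actin regulator needed for T-cell egress, had 2547, 2539 and 3817 (-0.59, and -0.58 with equal ERCC sums, just short of 1.5-fold), with almost equal values in the treated libraries. The kinases that act on CXCR4 most directly, ADRBK1 (GRK2) and GRK6, differed little, at 2986, 3100 and 2908 and at 1936, 2014 and 1817, and the G protein gene GNAI2 had 1563, 1851 and 1591. The highest gene of the list was GNB1, a G protein beta subunit, at 4251, 4450 and 4353 (0.03). RGS16 was also the 1 gene of the list at least 1.5-fold higher in oxamate+lactate than in oxamate (0.77). Its mean of 50.0 is just at the floor.

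SELPLG, which encodes PSGL-1, a mucin that carries selectin ligands, was even between oxamate and control. It had 773 normalized counts in oxamate+lactate, 695 in oxamate and 702 in control. The ratio of oxamate against control was -0.01, and the library with lactate was highest, at a ratio of 0.15 against oxamate that 8.95% of genes exceeded. In the values as deposited, SELPLG was the only member over the floor whose oxamate+lactate value did not lie between those of oxamate and control. The other 7 of the 8 did, as did 51.6% of all genes over the floor. With equal library totals, CXCR4, S1PR1, ITGAL and ITGB1 also had oxamate+lactate outside the other 2 libraries. The share of all genes was not computed under that scaling.

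Of the 16 selectin and ligand synthesis genes analysed here, 14 were over the floor and none of these passed 1.5-fold in any comparison. Their median was 0.10 for oxamate against control, where 7.48% of all genes were 1.5-fold higher and 3.98% lower. SPN, the mucin CD43 and the highest of the list, had 2885 in oxamate+lactate, 3680 in oxamate and 2479 in control (0.57). Among the glycosyltransferase genes that build the selectin-binding sugar, ST3GAL6 at 87, 80 and 105 (-0.39) and C1GALT1 at 569, 628 and 488 (0.36) differed most, while FUT4 had 349, 365 and 323 (0.18), ST3GAL4 209, 230 and 209 (0.14) and GCNT1 99, 110 and 103 (0.09). The tyrosine sulphation enzyme genes, whose products modify PSGL-1, had 72, 56 and 81 for TPST1 (-0.52) and 136, 131 and 121 for TPST2 (0.11).

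ITGA4 was the most abundant of the 9 genes and the integrin member with the largest difference. It had 7553 normalized counts in oxamate+lactate, 8829 in oxamate and 6232 in control. Oxamate was highest and control lowest, with oxamate+lactate between them. The ratios were 0.50 for oxamate against control, exceeded by 10.6% of genes, -0.23 for oxamate+lactate against oxamate and 0.28 for oxamate+lactate against control. With equal library totals the second ratio was -0.11. In RefSeq ITGA4 overlaps CERKL, which had 1384, 1539 and 1191, so reads of these neighbours may not be told apart. ITGB1, its partner chain, was nearly flat at 1062, 1072 and 1037, with ratios of 0.05, -0.01 and 0.03 in the same order of comparisons. The 2 chains of VLA-4 thus had unequal ratios, and the signs of the ITGB1 ratios of oxamate against control and of oxamate+lactate against oxamate depended on the scaling.

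The LFA-1 genes differed little between libraries. ITGAL had 251 normalized counts in oxamate+lactate, 261 in oxamate and 238 in control, a ratio of 0.13 for oxamate against control. ITGB2 had 917, 899 and 1015, the only member over the floor with control highest, and ratios of -0.17 for oxamate and -0.15 for oxamate+lactate against control. All 3 ITGAL ratios and all 3 ITGB2 ratios lay within the range of the ERCC RNAs. ITGB2-AS1, a noncoding gene that overlaps ITGB2, had 11, 8 and 9.

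Across the integrin family, the genes past 1.5-fold for oxamate against control were lower. Of 19 subunit genes with rows, 13 were over the floor, with a median of 0.07. Of these, 4 were 1.5-fold lower, against 3.98% of all genes, and none 1.5-fold higher, against 7.48%. ITGB7, which pairs with ITGA4 in the gut-homing integrin, had 53 in oxamate+lactate, 44 in oxamate and 89 in control (-1.0). It overlaps ZNF740, which had 709, 688 and 651. The laminin-binding subunit gene ITGA6 had 409, 364 and 674 (-0.89), the collagen-binding ITGA2 had 138, 125 and 215 (-0.78), and ITGA7 had 68, 45 and 69 (-0.61). ITGA5, the fibronectin receptor subunit, had 403, 424 and 283 (0.58, just short of 1.5-fold). ITGA7 overlaps BLOC1S1 and was the only subunit 1.5-fold higher in oxamate+lactate than in oxamate (0.58), and both of its calls were lost with a pseudocount of 10 (-0.52 and 0.50).

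Per kilobase, ITGA4 made up 81.0% of the summed alpha subunit level in oxamate+lactate, 82.9% in oxamate and 76.4% in control. ITGAL held 2.16%, 1.97% and 2.34%. Among 6 beta subunit genes ITGB1 held 54.1%, 54.7% and 50.1%, and ITGB2 37.0%, 36.3% and 38.8%. These are shares of RNA and not of protein. Set side by side per kilobase, the 9 genes ran in oxamate from ITGA4 at 2108 through KLF2 at 952, CXCR4 at 807, SELPLG at 308, ITGB1 at 283 and ITGB2 at 188 to ITGAL at 50.1, S1PR1 at 46.4 and CCR7 at 5.52. In control KLF2 stood at 221 normalized counts per kilobase, after ITGA4 at 1488, CXCR4 at 613, SELPLG at 311 and ITGB1 at 274. ITGB2 followed at 212. In oxamate+lactate KLF2 stood at 606, after ITGA4 at 1803 and CXCR4 at 755. With 1 library per condition, neighbours in these orders cannot be told apart beyond a replicate spread.

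**Figure D3:**
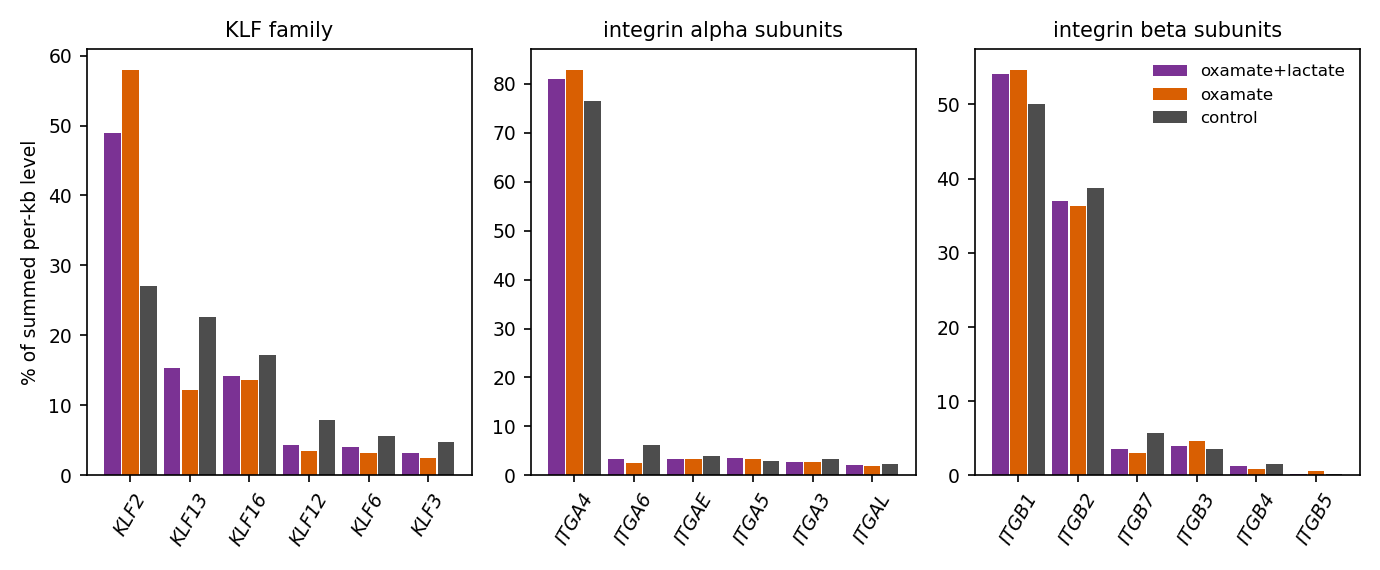
Share of the summed level per kilobase of transcript, in percent, held by the 6 leading genes of the KLF family, the integrin alpha subunits and the integrin beta subunits in the oxamate+lactate, oxamate and control libraries. KLF2 holds 48.9%, 58.0% and 27.0% of its family, while ITGA4 leads the alpha subunits and ITGB1 the beta subunits in each library.

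Genes that switch integrins on and link them to actin went both ways. Of 25 over the floor, 3 were 1.5-fold higher and 3 lower in oxamate than in control, against 7.48% and 3.98% of all genes. The median was 0.06. FLNA, filamin, which competes with talin for integrin tails, was the highest gene of the list, at 7664 normalized counts in oxamate+lactate, 11563 in oxamate and 5713 in control (1.02), and the only one 1.5-fold lower in oxamate+lactate than in oxamate (-0.59), a call lost relative to the median of all genes (-0.51), with equal totals (-0.48) and with equal ERCC sums (-0.53). RASGRP2, which activates Rap1 and through it integrins, had 905, 1125 and 637 (0.82), and CYTH1, a partner of the ITGB2 tail, had 1640, 1935 and 1125 (0.78). TLN2, the second talin, had 330, 248 and 656 (-1.40), while TLN1, the talin of leukocytes, had 3884, 4510 and 3734 (0.27). The focal adhesion adaptor PXN had 546, 494 and 781 (-0.66) and SKAP1, an adaptor of T-cell receptor signals to LFA-1, had 100, 80 and 125 (-0.64). FERMT2, a kindlin, was 1.5-fold higher in oxamate+lactate than in control (0.66), at 319, 285 and 201, and FERMT3, the kindlin of blood cells, had 846, 847 and 1008 (-0.25). Of 8 integrin and selectin ligand genes over the floor none passed 1.5-fold in any comparison. Their highest, CD47, had 2271, 2539 and 1810 (0.49).

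Of the trafficking genes tied to KLF2 in mouse T cells that were analysed here, S1PR1 and ITGB7 were over the floor and CCR7 was under it. S1PR1 was higher in oxamate than in control by less than 1.5-fold, and ITGB7 was 2-fold lower (-1.0). With a pseudocount of 10 the ITGB7 ratio was -0.87, short of 2-fold, and its mean of 62.0 is near the floor. The ratios of oxamate+lactate against control were 0.33 for S1PR1 and -0.74 for ITGB7, and both sets of ratios share the control library.

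**Figure D4:**
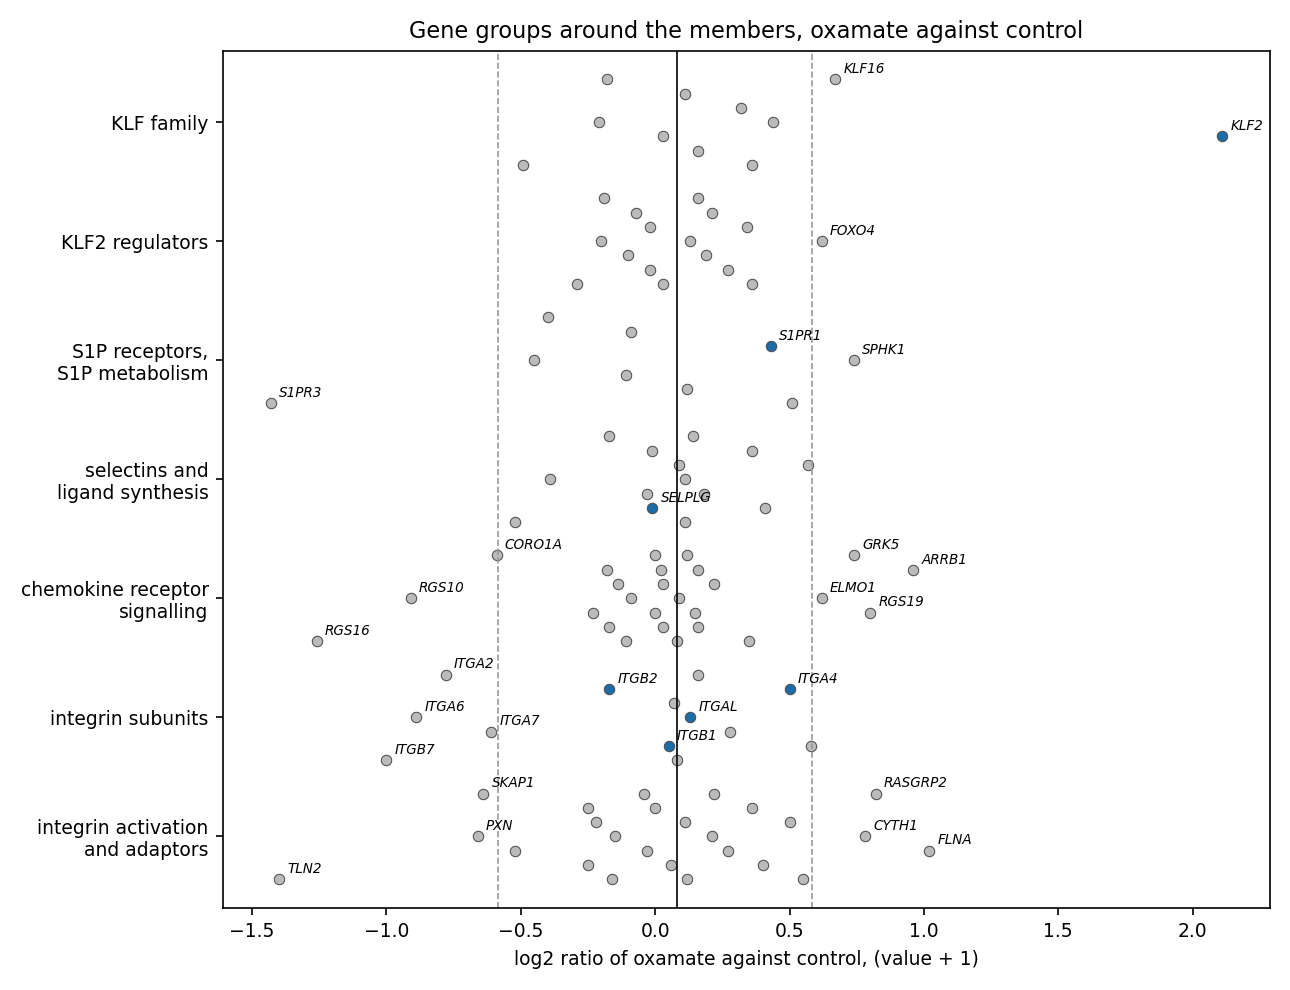
Log2 ratios of oxamate against control, on the (value + 1) scale, for the genes over the floor in 7 lists. Blue points are members of the set, names are given for members and for genes past 1.5-fold (dashed lines), and the solid line is the median of all genes, 0.08. KLF2 at 2.11 lies farthest from it, and the other members drawn lie inside the dashed lines. CXCR4 and CCR7 are in none of these lists and are not drawn.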

How the data were processed

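The authors deposited 1 table of normalized counts, whole numbers for 17329 genes and 36 ERCC RNAs, 1 column per library. They were treated as a score that the authors made from read counts and rounded. Per the submitters' processing notes, which assign no role, FastQC 0.11.9, STAR 2.7.1a, HTSeq 0.11.2 and hg19 were used. Annotation, normalization and depth are not stated there, and the kit does not mark strand, so no count model, counting interval or floor from reads was used. The different media imply separate cultures, and the sample labels used here give no batch or starting stock.

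Ratios used a pseudocount of 1, which understates the ratio of low genes, and genes with a mean of at least 50 served as background. Calls are 1.5-fold and 2-fold, and the code was tested on simulated data. Lengths and GC content came from the longest GENCODE 29 transcript (91.3% of genes over the floor), promoters from RefSeq (GRCh38.p14). From each list the genes past 1.5-fold in any comparison and the highest gene were named, besides the members, those of the 5 genes nearest in pattern to KLF2 and 3 neighbours in rank on each side. Other genes named from lists, and the promoter motifs, were chosen with values or letters seen. Some genes the rule or the lists name are not reported here and were left out of the list counts. The members and lists were chosen with earlier results of these data known. Python 3.11.15 and pandas 2.3.3 were used.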

Additional observations from a re-analysis of the deposited data

How the results depend on the processing

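The log2 ratios of the 8 members over the floor were recomputed under the 4 alternatives that can change a ratio, 96 values in all, and 10 changed sign, in CXCR4, S1PR1, ITGAL and ITGB1. KLF2 ranged from 2.0 to 2.11 for oxamate against control, from -0.65 to -0.54 for oxamate+lactate against oxamate and from 1.44 to 1.52 for oxamate+lactate against control. Equal library totals moved the median of all genes for oxamate+lactate against oxamate from -0.09 to 0.02. For that comparison, 0 members were 1.5-fold lower relative to the median or with equal totals. With a floor of 10 or none, 1 member, CCR7, was 1.5-fold lower in oxamate and in oxamate+lactate than in control.

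Genes 2-fold higher in oxamate than in control, 149 in the values as deposited, numbered 99 relative to the median, 86 with equal totals, 51 with a floor of 200, 550 with a floor of 10 and 808 with none. The 108 lower ones became 36, 396 and 660 under those floors. The split of 149 higher and 108 lower was 99 and 132 relative to the median, and 86 and 146 with equal totals. For oxamate+lactate against control, the 67 higher became 44 with a pseudocount of 10, and 14, 382 and 643 under the floors, and the 42 lower became 10, 373 and 609. For oxamate+lactate against oxamate, the 0 higher became 3 relative to the median, 4 with equal totals, 3 with equal ERCC sums, 45 with a floor of 10 and 227 with none, and the 1 lower became 0 under each of those scalings, 139 and 283.

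Of 116 listed genes over the floor other than members, 10 were 1.5-fold higher in oxamate than in control (19 with no floor) and 11 lower (4 with a floor of 200). For oxamate+lactate against control 6 were higher (3 with a floor of 200, 12 with none) and 5 lower (2 and 10). For oxamate+lactate against oxamate 2 were higher (1 with a pseudocount of 10, 0 with a floor of 200, 4 with none) and 1 lower (0 under each scaling, 3 with a floor of 10, 8 with none). In the values as deposited, 7.48% of all genes over the floor were 1.5-fold higher in oxamate than in control, and 3.98% were lower. The same shares were 2.99% and 3.07% for oxamate+lactate against control, and 0.252% and 0.903% for oxamate+lactate against oxamate. The floors change which genes are counted. No paired analysis was possible because each group has 1 library and no test was made. The unknown depth limits what can be said of low genes such as CCR7.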

Other observations

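Some chemokine receptor genes under the floor of 50 had their highest value in the oxamate library. They were named after their values were seen, and ratios at such levels rest on a few counts. CX3CR1, the fractalkine receptor, had 8 normalized counts in oxamate+lactate, 19 in oxamate and 2 in control. CXCR6, a receptor of tissue-resident T cells, had 3, 15 and 3 in the same order, and the gut-homing receptor gene CCR9 had 5, 11 and 3. CCR4, of skin-homing and type 2 helper cells, had 31, 44 and 17, and CCR8 had 33, 40 and 26. Others were even or highest elsewhere, among them CCR10 at 19, 15 and 14 and ACKR4, a scavenger of CCL19 and CCL21, at 23, 17 and 18. The share of all genes under the floor with this order was not computed.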
